A study of Mus musculus with 12 samples.

Results

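The genes described here belong by symbol to families of proteins that write, erase or read marks on histones and DNA, or that move nucleosomes. They were chosen by symbol, not by any measured value: histone lysine and arginine methyltransferases, PR domain proteins, demethylases, acetyltransferases, deacetylases and sirtuins, Polycomb proteins, bromodomain and PHD finger proteins, SWI/SNF, CHD and ARID proteins, DNA methylation enzymes and high mobility group proteins. Of 9984 genes with a probe set of a single symbol, 109 matched, each represented by its probe set of highest mean over 12 arrays. A further 34 probe sets of these genes were set aside by that choice, 25 of them for Chd7. A matching symbol does not establish a function: the antisense gene Dnmt3aos, for one, is counted with the DNA methylation enzymes.

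RNA was measured in sorted bone marrow cells of male C57Bl/6 mice on Affymetrix gene arrays, with 3 arrays in each of 4 groups. For all groups the labels give 6 generations on the C57Bl/6 background. Multipotential progenitors (MPPs) came from Erg -/- mice, which carried floxed Erg alleles with the Mx1-Cre transgene, and from Erg fl/fl mice without that transgene. Both kinds of mice received 5 injections of pIpC at intervals of 2 days, 200 µl each at 1.5 mg/ml, and sorting followed 2 weeks from the start of injection. Hematopoietic stem cells (HSCs) came from Erg +/- mice, made with a general Cre deleter and titled as knockouts in the labels, and from Erg +/+ mice. No pIpC is recorded for the HSC mice. The floxed segment holds exon 11, which encodes the DNA-binding domain of Erg. Mx1-Cre is switched on by the interferon response to pIpC in many cell types, so that in the MPPs the genotype and the presence of Cre cannot be told apart. The MPP and HSC groups also differ in pIpC and in the floxed allele. The HSC gate was lineage-, Sca-1+, c-kit+, CD150+ and CD48-. For MPPs the sorting field gives CD150-, whereas the source field repeats the HSC gate. Whether the arrays stand for separate animals is not stated in the labels, and the p-values therefore reflect array-to-array spread that may be technical.

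The values, deposited by the authors, are log2 after RMA, so a difference of 1 is a 2-fold difference, and differences of dim genes are compressed. Array medians lay between 5.41 and 5.54, and replicate correlations over all genes between 0.953 and 0.974. Erg itself is not analysed here. The 5 measured genes of the HSC marker list, Mmrn1, Tgm2, Nupr1, Ifitm1 and Eng, were called lower in the MPPs in both population comparisons, and their mean per array lay between 6.23 and 6.45 in Erg -/- MPPs, 6.86 and 6.99 in Erg fl/fl MPPs, 9.80 and 9.90 in Erg +/- HSCs, and 9.64 and 9.78 in Erg +/+ HSCs. All tests are from 1 limma model over the 12 arrays, with p-values adjusted over the 9984 genes by Benjamini-Hochberg and a threshold of 0.05. In bulk RNA of sorted cells, fewer cells of a type and less RNA per cell cannot be told apart.

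Histone and DNA marks set how open chromatin is: acetylation and the methylation of some lysines go with active genes, whereas Polycomb marks, other methyl-lysines and DNA methylation go with silent ones. Remodelling complexes use ATP to slide or evict nucleosomes, and high mobility group proteins bend DNA or bind nucleosomes. Several of these genes, among them Dnmt3a, Tet2, Kmt2d and Phf6, are known from blood stem cell function and blood cancers. Erg is an ETS-family transcription factor, and ETS factors bind DNA around a GGAA core.

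The RefSeq promoter table of build GRCm38.p6, which gives 250 bases before and 50 after each start, holds promoters of 88 of the 109 genes. Promoters are printed for Hmgb2, the chromatin gene called in a comparison, for Phf10 and Prmt9, which had the next smallest p-values in that comparison, and for Smarcb1, which had the smallest among genes of lower value there. The ETS-type motif CCGGAAG was searched on both strands. It occurs in 16.7% of the 114 promoters of chromatin genes and in 8.86% of all 32851 promoters, and the median GC content of these sets was 62.0% and 52.7%. It has 0 matches in the 4 promoters printed. The shorter core GGAA was not searched for, and it can be read in the printed promoters of Hmgb2, Prmt9 and Smarcb1. A second motif, CCAAT, was searched after these sequences had been read and the first had not matched; it too was taken on both strands, and the matches of these motifs overlap in 0 promoters. CCAAT occurs at least once in 43.9% of the promoters of chromatin genes and in 37.4% of all promoters. Capitals below mark CCAAT or its reverse complement, found 4 times in the promoter of Hmgb2 and 0 times in the other 3; at least 4 matches occur in 1.75% of the promoters of chromatin genes and in 1.06% of all. The regions are chr8:57511593-57511892, plus strand, for Hmgb2; chr17:14961211-14961510, minus strand, for Phf10; chr8:77549147-77549446, plus strand, for Prmt9; and chr10:75921565-75921864, minus strand, for Smarcb1. Each is written 5′ to 3′ on the strand of its gene.
Hmgb2: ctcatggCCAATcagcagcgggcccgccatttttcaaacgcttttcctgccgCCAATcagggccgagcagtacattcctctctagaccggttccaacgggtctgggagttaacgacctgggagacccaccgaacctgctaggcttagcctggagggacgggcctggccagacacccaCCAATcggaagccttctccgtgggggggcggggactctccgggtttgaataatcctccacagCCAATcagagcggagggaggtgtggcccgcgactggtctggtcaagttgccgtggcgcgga
Phf10: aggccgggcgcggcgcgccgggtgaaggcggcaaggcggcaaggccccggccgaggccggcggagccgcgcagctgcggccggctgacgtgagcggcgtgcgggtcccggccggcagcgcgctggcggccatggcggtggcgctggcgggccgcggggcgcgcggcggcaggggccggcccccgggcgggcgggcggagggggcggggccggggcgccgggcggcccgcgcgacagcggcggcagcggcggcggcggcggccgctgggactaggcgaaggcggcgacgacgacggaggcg
Prmt9: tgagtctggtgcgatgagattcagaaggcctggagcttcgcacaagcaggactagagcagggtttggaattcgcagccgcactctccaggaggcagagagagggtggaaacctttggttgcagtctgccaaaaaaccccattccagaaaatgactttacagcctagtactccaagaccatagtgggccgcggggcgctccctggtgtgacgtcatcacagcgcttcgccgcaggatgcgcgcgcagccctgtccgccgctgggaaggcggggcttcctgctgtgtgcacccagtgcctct
Smarcb1: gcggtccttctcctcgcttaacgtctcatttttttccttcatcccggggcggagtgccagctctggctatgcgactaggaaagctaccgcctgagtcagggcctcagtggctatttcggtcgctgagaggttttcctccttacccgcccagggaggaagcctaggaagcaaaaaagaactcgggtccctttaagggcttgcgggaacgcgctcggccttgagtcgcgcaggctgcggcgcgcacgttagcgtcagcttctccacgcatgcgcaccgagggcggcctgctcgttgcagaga
A match is a description of these letters and not a binding site.

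The first question is whether chromatin genes differed in MPPs without Erg. In Erg -/- MPPs against Erg fl/fl MPPs, 0 of 109 chromatin genes passed the test, where 0.0801% of all genes did. At an unadjusted p under 0.05, 1 chromatin gene was higher and 4 were lower, or 4.59%, against 4.79% of all genes (1.21% higher and 3.58% lower). The 95% confidence interval lay within 1 log2 unit (2-fold) either side of 0 for 95 of the 109 genes, or 87.2%, against 84% of all genes. Each interval is for 1 gene alone, without adjustment for the number of genes. It concerns the array values, whose differences are compressed for dim genes.

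Markers of other cell types also differed between the MPP groups. The mean of the 6 measured B lineage markers per array lay between 5.05 and 5.40 in Erg -/- MPPs and between 6.50 and 7.002 in Erg fl/fl MPPs, with 5 of the 6 genes lower by value and 2 called. The mean of the 3 T and NK cell markers lay between 4.53 and 4.80 in Erg -/- MPPs. In Erg fl/fl MPPs it lay between 5.60 and 5.76, with 3 of 3 genes lower by value and 1 called. The called gene, Nkg7, differed by -3.05, while Klrd1 stood at -0.18 and Cd3d at -0.01, both with overlapping groups. For the 3 mast cell and basophil markers it lay between 4.40 and 4.90 in Erg -/- MPPs and between 5.56 and 6.71 in Erg fl/fl MPPs, again with 3 of 3 lower by value and 1 called. The means of the HSC list, given above, did not overlap either, with 4 of its 5 genes lower by value and 1 called. Of the 11 genes of the lymphoid-primed list 2 were measured, Flt3 and Notch1. Their mean lay between 7.81 and 7.97 in Erg -/- MPPs and 7.52 and 7.79 in Erg fl/fl MPPs. Flt3 differed by 0.52 and Notch1 by -0.01. The part of these markers in the chromatin results was not tested.

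The direction of the small differences was uneven. The difference was positive for 33 of the 109 genes, against 49.4% of all genes, and the median difference was -0.09, against -0.00395 over all genes. This balance depends on the scaling of the arrays: after a repeated quantile normalization 52 of the 109 genes were positive, against 58.1% of all genes, and after centring each array on its median 37 were, against 54.6%. The median of the 109 genes was -0.02 and -0.06 under these scalings, against 0.05 and 0.03 over all genes. Among genes whose mean lies above the median, 24.1% of chromatin genes and 37.2% of all genes were positive, with medians of -0.12 and -0.09. The Erg fl/fl array of replicate 1 had the highest median over chromatin genes, 7.21, with 6.81 and 6.96 on the other two; without it the median difference was -0.04. Non-overlapping groups occurred for 6 genes higher and 6 lower in Erg -/- MPPs, or 11%, against 10.5% of all genes (4.36% higher and 6.1% lower).

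**Figure D1:**
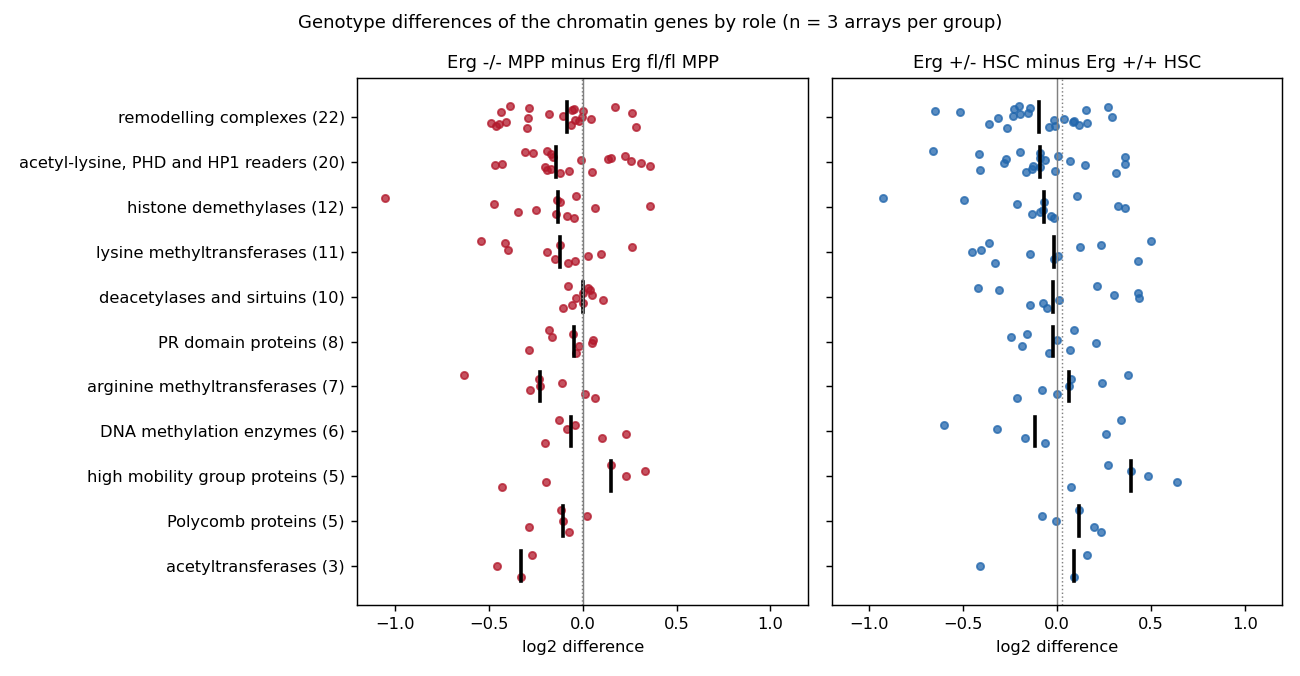
Log2 difference of each chromatin gene (dots) by role, for Erg -/- minus Erg fl/fl MPPs (left) and Erg +/- minus Erg +/+ HSCs (right). Black bars are role medians, dotted lines the medians of all 9984 genes, and numbers in brackets the genes per role; apart from Kdm7a, all dots lie within 0.7 of 0.

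The smallest p in MPPs belonged to Prmt9, a protein arginine methyltransferase that acts on a splicing factor. Its values were 5.54, 5.64 and 5.17 in Erg -/- MPPs, 6.29, 6.06 and 5.89 in Erg fl/fl MPPs, 5.56, 5.78 and 5.40 in Erg +/- HSCs, and 5.57, 4.91 and 5.13 in Erg +/+ HSCs. All 3 Erg -/- arrays lay below all 3 Erg fl/fl arrays, while the mutant MPPs overlapped both HSC groups. The difference was -0.63 (SE 0.21), with an adjusted p of 0.946 in limma.

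Chd1, a remodeller that binds methylated histone H3 lysine 4, read 8.64, 8.39 and 8.44 in Erg -/- MPPs, 9.23, 8.90 and 8.81 in Erg fl/fl MPPs, 8.35, 8.71 and 8.27 in Erg +/- HSCs, and 8.40, 8.24 and 8.21 in Erg +/+ HSCs. Again the Erg -/- MPP arrays lay below the Erg fl/fl MPP arrays, with a difference of -0.49 (SE 0.18, limma adjusted p = 0.998). Kdm5a, a demethylase of histone H3 lysine 4, had 8.65, 8.69 and 8.32 in Erg -/- MPPs, 9.29, 8.97 and 8.81 in Erg fl/fl MPPs, 8.24, 8.52 and 8.32 in Erg +/- HSCs, and 8.62, 8.50 and 8.60 in Erg +/+ HSCs. It showed the same separation, at -0.47 (limma adjusted p = 0.998). Phf10, a subunit of the PBAF form of SWI/SNF, differed by -0.43, and Arid4a, a retinoblastoma-binding protein, by -0.46. Adjusted p-values of both were 0.998 in limma. On the other side, Kdm4d, a demethylase of histone H3 lysine 9, was the gene with the smallest p. It read 4.92, 4.96 and 5.04 in Erg -/- MPPs, 4.35, 4.60 and 4.88 in Erg fl/fl MPPs, 4.64, 4.73 and 4.77 in Erg +/- HSCs, and 4.25, 4.53 and 4.38 in Erg +/+ HSCs, a difference of 0.36 between the MPP groups (limma adjusted p = 0.998). Ing4, a reader of methylated H3 lysine 4, Hmgb4, Smarca1, an ISWI remodeller, and Phf24 followed with differences of 0.36, 0.33, 0.26 and 0.23. Hmgb4 and Smarca1 were dim, with means over the arrays of 3.81 and 3.4, against a median of 5.81 over all genes.

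By role, 0 genes of any group were called in MPPs. Of 12 histone demethylases 2 were positive, of 11 lysine methyltransferases 3, of 7 arginine methyltransferases 2 and of 20 readers 7. The 3 acetyltransferases had a median difference of -0.33, with Kat6b at -0.46 and Kat7 at -0.27, and 5 of 22 remodelling genes were positive, with a median of -0.08. After the repeated quantile normalization 12 of the 22 remodelling genes were positive, with a median of 0.02, whereas 0 of the 3 acetyltransferases were, with a median of -0.24. Lysine methyltransferases were then positive in 6 of 11 and histone demethylases in 5 of 12, with medians of 0.00347 and -0.03, against -0.12 and -0.13 on the values as deposited. Arginine methyltransferases stayed at 2 of 7, and readers had 9 of 20. Deacetylases and sirtuins lay closest to 0, between -0.10 and 0.11, with 6 of 10 positive. Kdm7a, a demethylase of repressive lysines, had the lowest difference of all 109, -1.05, and -0.93 in HSCs (limma adjusted p = 0.998 and 0.868). Its arrays were spread: 6.42, 7.71 and 5.51 in Erg -/- MPPs, 7.80, 7.14 and 7.85 in Erg fl/fl MPPs, 5.47, 6.78 and 6.67 in Erg +/- HSCs, and 8.03, 6.84 and 6.83 in Erg +/+ HSCs. The MPP groups overlapped, and the HSC groups did not.

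The second comparison asks the same of stem cells with a single functional Erg allele. In Erg +/- HSCs against Erg +/+ HSCs, 0 of 109 chromatin genes were called, where 0.02% of all genes were. At an unadjusted p under 0.05, 3 were higher and 3 lower, or 5.5%, against 6.32% of all genes (2.73% higher and 3.59% lower). Groups did not overlap for 6 genes higher and 4 lower, or 9.17%, against 10.4% (6.06% higher and 4.38% lower). The median difference was -0.03, against 0.02 over all genes, with 47 of 109 positive against 53.8%. Intervals lay within 1 log2 unit for 94 genes.

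Marker lists of other cell types separated the HSC groups too. The mean of the 5 measured endothelial and stromal markers per array lay between 5.58 and 5.79 in Erg +/- HSCs and between 6.43 and 7.15 in Erg +/+ HSCs, with 5 of 5 lower by value and 1 called. The 7 erythroid markers had means between 6.67 and 6.89 in Erg +/- HSCs and between 5.71 and 6.14 in Erg +/+ HSCs, with 7 of 7 higher by value and 0 called, 4 of them at an unadjusted p under 0.05. The 3 megakaryocyte markers had means between 5.81 and 6.05 in Erg +/- HSCs and between 6.08 and 6.38 in Erg +/+ HSCs, with 3 of 3 lower by value and 0 called, 1 of them at an unadjusted p under 0.05. The means of the 2 measured lymphoid-primed genes, Flt3 and Notch1, did not overlap either. They lay between 5.60 and 6.13 in Erg +/- HSCs and 6.14 and 6.52 in Erg +/+ HSCs. Flt3 differed by -1.33 and Notch1 by 0.16. Means of the HSC list did not overlap, but its genes were split. Of the 5 genes, 3 were higher and 2 lower by value, with 0 called. Nupr1 stood at 1.22, Ifitm1 at 0.09, Tgm2 at 0.0002, Mmrn1 at -0.25 and Eng at -0.34. The part of these markers in the HSC results was not tested.

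Hmgb2, a DNA-bending protein abundant in dividing cells, had the smallest p among genes of higher value in Erg +/- HSCs, with a difference of 0.64 (SE 0.26, limma adjusted p = 0.781), between 0.39 and 0.91 with single arrays left out. Kmt2d, a methyltransferase of histone H3 lysine 4 at enhancers, read 9.82, 9.51 and 9.54 in Erg -/- MPPs, 9.81, 9.73 and 9.46 in Erg fl/fl MPPs, 9.67, 9.42 and 9.48 in Erg +/- HSCs, and 9.09, 9.35 and 8.82 in Erg +/+ HSCs. The 3 Erg +/- HSC arrays lay above the 3 Erg +/+ HSC arrays and close to the MPP arrays. The HSC difference was 0.43 (SE 0.18, limma adjusted p = 0.789). Hmgb4, a dim gene with a mean of 3.81 over the arrays, differed by 0.40 (limma adjusted p = 0.789). Hdac6, a deacetylase of the cytoplasm, and Kdm4b differed by 0.44 and 0.36 (limma adjusted p = 0.821 and 0.823).

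In the other direction, Phf8, which despite its place among the readers is a demethylase, had 6.81, 6.65 and 6.62 in Erg -/- MPPs, 7.33, 6.88 and 6.44 in Erg fl/fl MPPs, 6.67, 6.39 and 6.58 in Erg +/- HSCs, and 7.72, 7.14 and 6.76 in Erg +/+ HSCs. The Erg +/- HSC arrays lay below the Erg +/+ HSC arrays, with a difference of -0.66 (SE 0.26, limma adjusted p = 0.773), between -0.88 and -0.405 with single arrays left out. Smarcb1, a core SWI/SNF subunit and tumour suppressor, differed by -0.65 (limma adjusted p = 0.781), and by -0.31 without Erg +/+ HSC replicate 1; Phf3, a PHD finger protein that binds RNA polymerase II, differed by -0.42 (limma adjusted p = 0.789). Kdm5d, a Y-linked H3 lysine 4 demethylase, and Setd2, the methyltransferase of H3 lysine 36, followed at -0.49 and -0.46. The 5 high mobility group genes were all positive, between 0.07 and 0.64, with 2 at an unadjusted p under 0.05 and 0 called, and all 5 stayed positive under both rescalings. Hmgb1, the closest relative of Hmgb2, stood at 0.07, Hmgb3 at 0.48 and Hmgn2, a nucleosome-binding protein, at 0.27. Setdb1, which methylates histone H3 lysine 9, differed by -0.36 in HSCs and by -0.41 in MPPs (limma adjusted p = 0.885 and 0.998).

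The genotype differences in MPPs and in HSCs rest on separate arrays. Across the 109 genes they correlated at Pearson r = 0.224 and Spearman rho = 0.16, against r = 0.135 across all genes, as a description over genes, which are not independent replicates. The sign was the same for 63 of 109 genes, against 54.7% of all genes. A test of the difference between these effects, MPP minus HSC, called 0 chromatin genes, where 0.02% of all genes were called. The difference was positive for 44 of 109, against 46.1% of all genes, and for 53 after either rescaling, against 53.1% with the quantile method and 52.9% with centring. At an unadjusted p under 0.05, 0 were positive and 4 negative, or 3.67% against 3.88% of all genes (1.43% positive and 2.44% negative). Those 4 were Prmt9 at -1.01 (limma adjusted p = 0.895), Phf10 at -0.79 (limma adjusted p = 1), Chd1 at -0.65 (limma adjusted p = 1) and Hmgb2 at -0.84 (limma adjusted p = 1). Each of them was lower in Erg -/- MPPs than in Erg fl/fl MPPs and higher in Erg +/- HSCs than in Erg +/+ HSCs by value. The same 4 genes lead the comparison of control populations, with which this test shares the Erg fl/fl MPP and Erg +/+ HSC arrays.

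The populations were then compared in the controls. In Erg fl/fl MPPs against Erg +/+ HSCs, 1 chromatin gene was called, against 1.28% of all genes; the call was in the higher direction, in which 0.651% of all genes were called. At an unadjusted p under 0.05, 15 chromatin genes were higher and 9 lower, or 22%, against 22.3% of all genes (14.4% higher and 7.91% lower). Groups did not overlap for 20 genes higher and 9 lower, or 26.6%, against 27% (18.5% higher and 8.54% lower). The median difference was 0.02, against 0.12 over all genes, and 57 of 109 were positive, against 62.4%. Under the repeated quantile normalization 52 were positive, against 53.9% of all genes, and under median centring 48, against 52.7%; the median of the 109 genes was then -0.01 and -0.08, on the other side of 0, and that of all genes 0.03 and 0.02.

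Hmgb2 was the gene called. Its values were 9.82, 9.68 and 9.82 in Erg -/- MPPs, 10.11, 9.81 and 9.996 in Erg fl/fl MPPs, 9.12, 8.80 and 9.70 in Erg +/- HSCs, and 8.34, 8.26 and 9.11 in Erg +/+ HSCs. The 3 Erg fl/fl MPP arrays lay above all 6 HSC arrays, and the Erg +/- HSC arrays overlapped the Erg +/+ HSC arrays. Hmgb2 averaged 9.97 ± 0.15 in Erg fl/fl MPPs and 8.57 ± 0.47 in Erg +/+ HSCs (SD, n = 3 each), a difference of 1.40 (SE 0.26, limma adjusted p = 0.0245). It was called without Erg +/+ HSC replicate 3, but not without any other of the 6 arrays compared, where the adjusted p lay between 0.0527 and 0.0883, nor with the mean of its probe sets (1.05, adjusted p = 0.178). Its second probe set differed by 0.69. Where on the genome the probe sets of Hmgb2 lie was not checked. Of the 26 genes of the proliferation list, 6 were measured, and 5 of these were positive in the same comparison, with a median of 0.58 and Plk1 called (difference 2.24, limma adjusted p = 0.0375); their mean per array lay between 6.61 and 7.16 in Erg fl/fl MPPs and between 5.86 and 6.32 in Erg +/+ HSCs. Means of the B lineage, T and NK, and mast and basophil lists were also higher in Erg fl/fl MPPs without overlap, the last between 5.56 and 6.71 in Erg fl/fl MPPs and 4.32 and 4.38 in Erg +/+ HSCs. The mean of the 2 lymphoid-primed genes was higher too, without overlap, with Flt3 at 2.57 and Notch1 at -0.05. That of the endothelial and stromal list was lower without overlap, between 5.93 and 6.27 in Erg fl/fl MPPs and 6.43 and 7.15 in Erg +/+ HSCs. Of its 5 genes 4 were lower by value and 1 was called. The part of these lists in the control results was not tested.

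**Figure D2:**
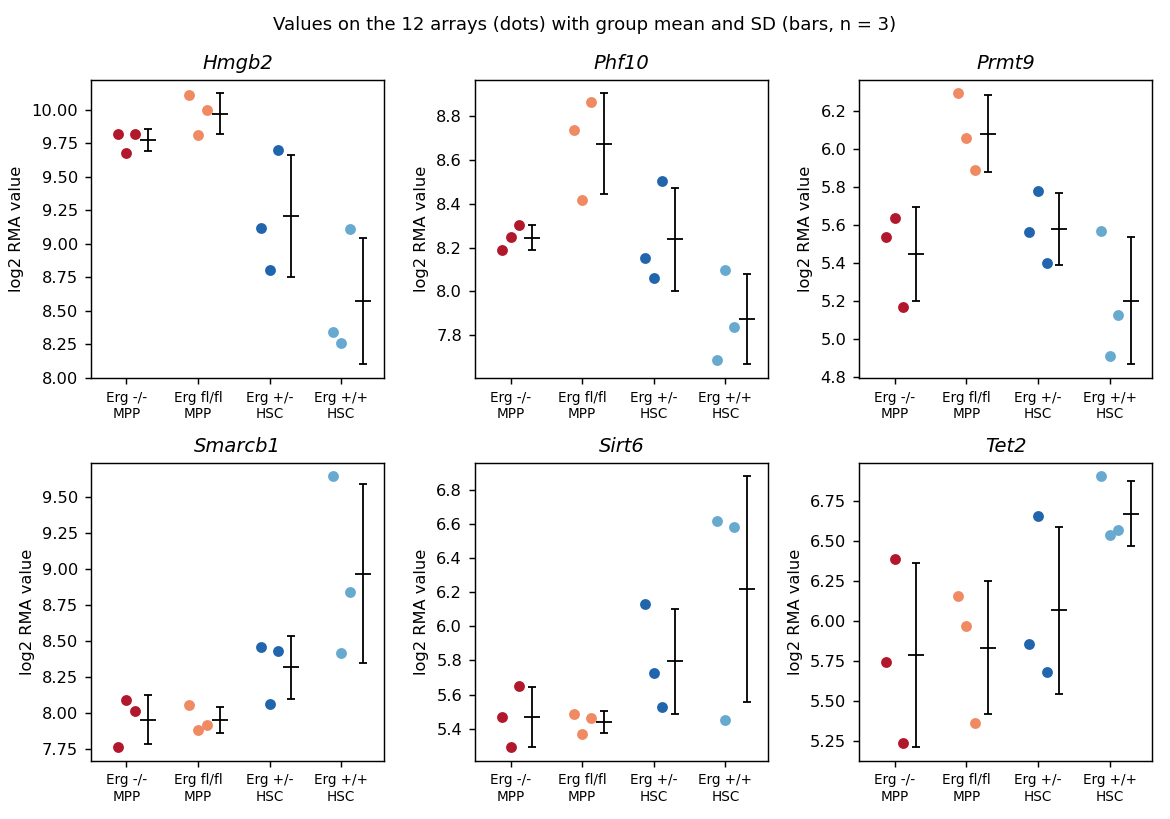
Log2 values of 6 chromatin genes on each of the 12 arrays (dots), with group mean and SD (bars, n = 3); each panel has its own vertical axis, which does not start at 0. Hmgb2, Phf10 and Prmt9 have their highest group mean in Erg fl/fl MPPs, and Smarcb1, Sirt6 and Tet2 have their highest group mean in Erg +/+ HSCs.

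Below the call, the next genes of higher value were Phf10, Prmt9, Chd1 and Asxl3. Phf10 read 8.19, 8.25 and 8.30 in Erg -/- MPPs, 8.74, 8.42 and 8.87 in Erg fl/fl MPPs, 8.15, 8.06 and 8.50 in Erg +/- HSCs, and 7.69, 8.10 and 7.84 in Erg +/+ HSCs. All Erg fl/fl MPP arrays exceeded the Erg +/+ HSC arrays, by 0.80 on average (SE 0.18, limma adjusted p = 0.0536). Prmt9 and Chd1, whose array values are given above, differed by 0.88 and 0.70 (adjusted p = 0.0612 and 0.0739), also without overlap. Without Erg +/+ HSC replicate 1, Prmt9 passed the test at 1.06 (adjusted p = 0.0408). Suv39h2, which methylates histone H3 lysine 9, had the second largest difference, 1.36, with an SE of 0.50 and an adjusted p of 0.15.

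Smarcb1 led the lower side. It read 7.76, 8.09 and 8.01 in Erg -/- MPPs, 8.05, 7.88 and 7.92 in Erg fl/fl MPPs, 8.46, 8.06 and 8.43 in Erg +/- HSCs, and 9.65, 8.42 and 8.84 in Erg +/+ HSCs. The MPP groups lay together and below the Erg +/+ HSC arrays, of which replicate 1 was the highest. Erg fl/fl MPPs averaged 7.95 ± 0.09 and Erg +/+ HSCs 8.97 ± 0.63 (SD, n = 3 each), a difference of -1.02 (limma adjusted p = 0.0763), and of -0.68 without Erg +/+ HSC replicate 1 (limma adjusted p = 0.138). Sirt6, a deacetylase with a part in DNA repair, had 5.47, 5.29 and 5.65 in Erg -/- MPPs, 5.49, 5.37 and 5.46 in Erg fl/fl MPPs, 6.13, 5.73 and 5.53 in Erg +/- HSCs, and 6.62, 5.45 and 6.58 in Erg +/+ HSCs. Replicate 2 of the Erg +/+ HSCs lay among the MPP arrays, and the difference was -0.78 (adjusted p = 0.146). Without that replicate Smarcb1 (-1.30, adjusted p = 0.0284) and Sirt6 (-1.16, adjusted p = 0.0213) were called, and Hmgb2 was not.

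Tet2, which oxidises methylcytosine and restrains stem cell self-renewal, read 5.74, 6.39 and 5.24 in Erg -/- MPPs, 6.16, 5.97 and 5.36 in Erg fl/fl MPPs, 5.86, 6.66 and 5.68 in Erg +/- HSCs, and 6.90, 6.54 and 6.56 in Erg +/+ HSCs. All Erg fl/fl MPP arrays lay below the Erg +/+ HSC arrays, with a difference of -0.84 (SE 0.32, adjusted p = 0.165). Its relatives differed less: Tet1 by 0.00 and Tet3 by 0.25, although the second probe set of Tet3 gave -1.03. Dnmt3a, the de novo DNA methyltransferase, differed by -0.10, with an interval of -0.56 to 0.36; its antisense gene Dnmt3aos is a separate entry, and the sources do not say whether its probes separate the strands.

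By role in the controls, 8 of 10 deacetylases and sirtuins were lower in MPPs by value, with a median of -0.29 and 0 called. The count was 8 under the repeated quantile normalization and 9 under median centring. Beside Sirt6, Hdac4 stood at -0.33, Sirt7, a nucleolar sirtuin, at -0.34 and Hdac11 at -0.25. Polycomb proteins had 4 of 5 positive and a median of 0.52: Asxl3, Ezhip and Cbx2 stood at 0.70, 0.54 and 0.52, and Eed, a core subunit of Polycomb complex PRC2, at 0.04, while Cbx8, a subunit of PRC1, gave -0.09. Under both rescalings 3 of the 5 were positive. Remodelling genes split 13 positive to 9 negative, and 10 were positive under median centring. Within SWI/SNF, Smarcb1 and Smarcc2 (-0.59) were negative, while Smarce1 (0.77) and Smarcc1 (0.41) were positive; a second probe set of Smarce1 gave 0.06. Arid2, a PBAF subunit, and Arid3a, a factor of B cells and stem cells, stood at -0.44 and -0.51, and Chd8 at 0.18. Chd7 is carried by 26 probe sets, of which 7 were positive and 19 negative, between -1.99 and 0.54, so that it has no settled direction. Among arginine methyltransferases Prmt6 (0.48) and Prmt9 were positive and Prmt1, the main enzyme of asymmetric arginine methylation, was negative (-0.61); Prmt5, the main enzyme of symmetric arginine methylation, stood at 0.27 and Prmt3 at -0.07. Lysine methyltransferases split 6 to 5, with Kmt2d at 0.58 and Ehmt1 at -0.45. PR domain proteins had 6 of 8 positive, with Prdm14 at 0.44, Prdm13 at 0.41 and Prdm2, a methyltransferase of histone H3 lysine 9, at -0.24; 5 were positive under either rescaling. Demethylases split 7 to 5, with Kdm8 at 0.50, Kdm3b at 0.02, Kdm2b, which brings Polycomb proteins to CpG islands, at -0.26 and Kdm5b at -0.29. Readers were positive in 8 of 20, with Ing5, a subunit of acetyltransferase complexes, at 0.66, Ing3 at 0.29 and Phf20 at -0.16. Of the PR domain, demethylase and reader genes just named, Ing5 had the lowest limma adjusted p, 0.152.

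**Figure D3:**
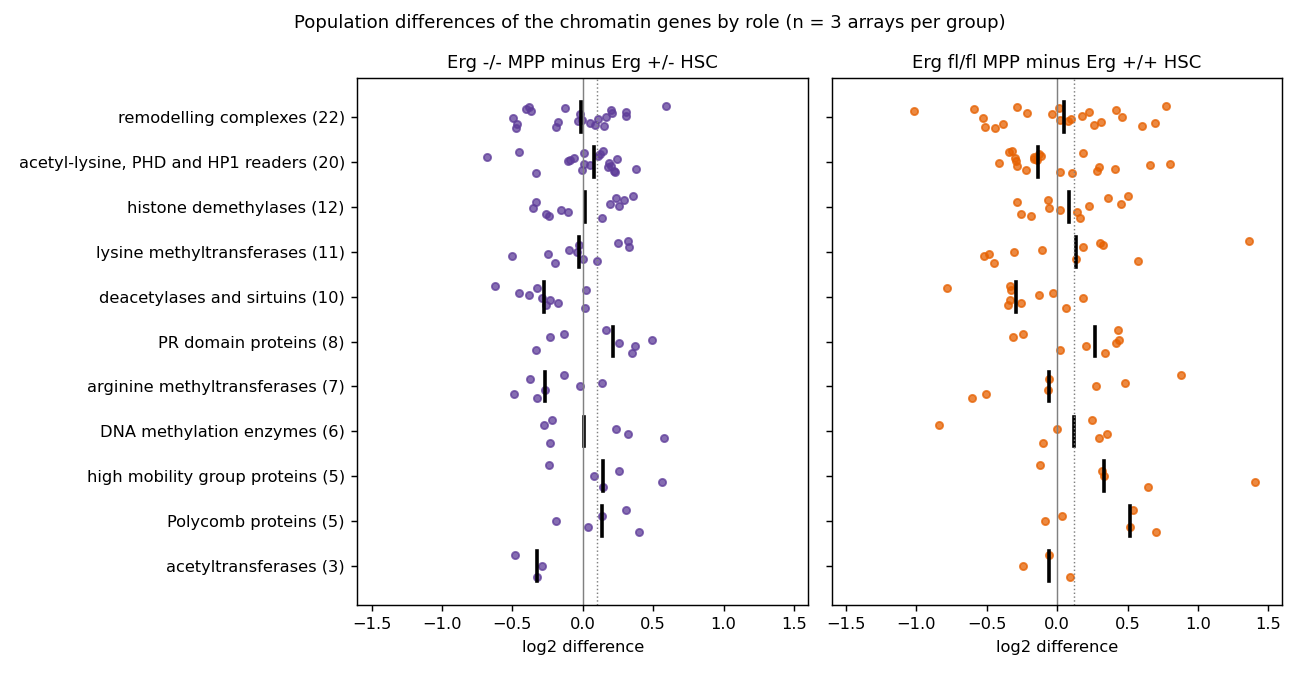
Log2 difference of each chromatin gene (dots) by role, for Erg -/- MPPs minus Erg +/- HSCs (left) and Erg fl/fl MPPs minus Erg +/+ HSCs (right). Black bars are role medians and dotted lines the medians of all 9984 genes, 0.10 on the left and 0.12 on the right; deacetylases and sirtuins have a median of -0.28 on the left and -0.29 on the right.

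The same population comparison can be made in the mice with reduced Erg, on arrays that share none with the controls. In Erg -/- MPPs against Erg +/- HSCs, 0 chromatin genes were called, where 0.12% of all genes were. At an unadjusted p under 0.05, 3 were higher and 2 lower, or 4.59% against 3.85% of all genes (1.79% higher and 2.05% lower). The difference was positive for 53 of 109, against 59.9%, and for 60 and 47 under the quantile and the median rescaling, against 58% and 55.5%. Groups did not overlap for 8 genes higher and 5 lower, or 11.9%, against 20.1% (14.7% higher and 5.47% lower). The smallest p-values were those of Smarce1 (0.59) and Hmgb2 (0.57) on the higher side, and Phf23 (-0.68) and Chd6 (-0.50) on the lower. Their limma adjusted p-values were 0.446 in each case. Hmgb2 changed sign, to -0.11, with the mean of its probe sets. A second probe set of Smarce1 gave 0.24.

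Across genes, the population difference in the mice with reduced Erg and that in the controls correlated at Pearson r = 0.645 and Spearman rho = 0.662 for the 109 chromatin genes, against r = 0.578 for all genes. The sign was shared by 85 of 109, against 74.9% of all genes. Of the 15 genes higher in control MPPs at an unadjusted p under 0.05, 14 had the same sign in the mice with reduced Erg and 2 also had a p under 0.05, or 13.3%; of the 9 lower, 9 and 1 did, or 11.1% for the second count. Among all genes so selected, 90% of the higher and 87.8% of the lower kept the sign, and 4.32% and 8.48% also had a p under 0.05. Dnmt3l and Smarce1 had non-overlapping groups in the same direction in both comparisons, or 1.83% of chromatin genes against 5.49% of all genes.

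**Figure D4:**
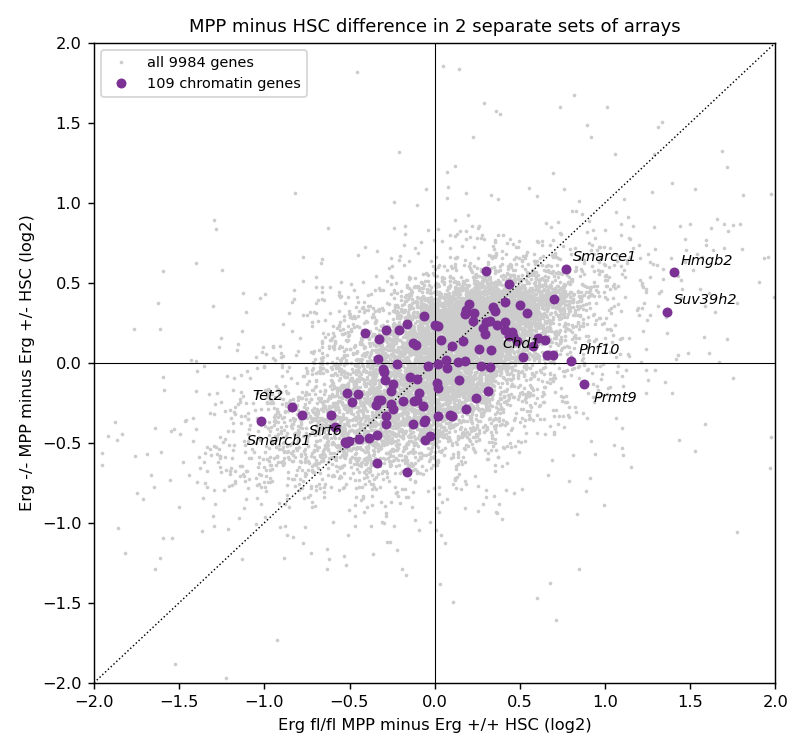
MPP minus HSC log2 difference in mice with reduced Erg (vertical) against that in controls (horizontal), for 109 chromatin genes (purple) and all 9984 genes (grey); the dotted line marks equal values, and 38 genes lie beyond the axes. The chromatin genes lie within the cloud of all genes, with Hmgb2 and Suv39h2 farthest right and Smarcb1 farthest left.

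Some of the best known members varied little. Chd4, the ATPase of the NuRD complex, ranged between 9.79 and 10.12 in Erg -/- MPPs, 9.77 and 10.06 in Erg fl/fl MPPs, 9.82 and 10.06 in Erg +/- HSCs, and 9.88 and 9.95 in Erg +/+ HSCs. Its groups overlapped throughout, and the 4 pairwise differences lay between -0.04 and 0.02. Hdac1, a deacetylase of several co-repressor complexes, differed by -0.10 between the MPP groups, with an interval of -0.48 to 0.27, and by -0.06 between the HSC groups, with an interval of -0.43 to 0.32. Kdm1a, the H3 lysine 4 demethylase of such complexes, gave -0.04 and -0.02, and Kmt2e -0.15 and -0.02. The range over the 4 group means exceeded 1 log2 unit for 4 chromatin genes, Hmgb2, Suv39h2, Kdm7a and Smarcb1, or 3.67%, against 7.06% of all genes. Its median was 0.436, against 0.453. In 68 of 109 genes, or 62.4%, the intervals of all 4 pairwise comparisons stayed within 1 log2 unit, against 60.6% of all genes.

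A list of 99 other chromatin genes outside the symbol rule had 44 measured members. In the controls, 4 were higher and 7 lower in Erg fl/fl MPPs at an unadjusted p under 0.05, or 25%, against 22.3% of all genes (14.4% higher and 7.91% lower). Of these Sap30, a subunit of the Sin3 deacetylase complex, was called, at 1.34 (SE 0.29, limma adjusted p = 0.0434). In the other 4 tests 0 were called; at an unadjusted p under 0.05, 0 were higher and 4 lower between the MPP groups, or 9.09%, against 4.79% of all genes. Between the HSC groups 0 and 5 were, or 11.4%, against 6.32% of all genes. In the difference of effects 0 and 1 were, or 2.27%, against 3.88%. Between the populations with reduced Erg 0 and 2 were, or 4.55%, against 3.85%. The smallest p-values belonged to Ruvbl1 (-0.59, limma adjusted p = 0.825) in Erg -/- against Erg fl/fl MPPs and to Kansl1 (-1.67, limma adjusted p = 0.691) in Erg +/- against Erg +/+ HSCs. Mbd4, a DNA repair enzyme that binds methylated CpG, was -1.06 in MPPs and -1.03 in HSCs (limma adjusted p = 0.998 and 0.781).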

How the data were processed

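The authors deposited log2 values per probe set of 12 Affymetrix arrays; the submitters' processing notes name RMA and affy, without a version. RMA subtracts background, equalises the array distributions and summarises probes, which makes each difference one against the bulk of the array. Joint normalisation of the 12 arrays and the annotation's build are not given in the sources used here. Arrays carry no read depth; their number limits precision.

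Of 18719 probe sets, 10657 have 1 symbol, 523 several and 7539 are not listed in the annotation. All 109 chromatin genes matched RefSeq by gene ID. Genome positions of the probe sets themselves were not checked against those of the genes. Members, lists and roles were chosen with earlier results of these data known. limma 3.58.1 (R 4.3.3) fitted 4 group means, with 8 residual and 4.35 prior degrees of freedom; tests were two-sided. The fit was tested on simulated data. Named genes are those called or, with fewer than 5 called, the 5 of smallest p per comparison and direction, the highest and the 2 of smallest control p per role, and members known from blood stem cells, given where a result turns on them; Kdm7a, Smarcc1 and the entry Dnmt3aos fall outside this rule and were picked with their values in view. Refits took place with each array left out, the replicate number as a block, array weights, trended and robust moderation, the mean of probe sets, median centring, another quantile normalization, dim genes dropped below the 25th or 50th percentile, the compared arrays alone, and, chosen after seeing the data, the 2 arrays of lowest weight left out together.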

Additional observations from a re-analysis of the deposited data

How the results depend on the processing

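The number of chromatin genes called stayed at 0 in both genotype comparisons and in the difference between them under every alternative run. It also stayed at 0 in the mice with reduced Erg. No median of the 109 genes moved by more than 0.13, the within-group SD of the array median over chromatin genes. That SD exceeds every median difference of the 109 genes, so a median could vanish or change sign within it. The control median changed sign, from 0.02 to -0.01 with the quantile method and -0.08 with centring. In the control populations the count of 1 became 0 with the mean of probe sets and with only the arrays compared, and ranged from 0 to 2 when single arrays were left out; it was also 0 without the 2 arrays of lowest weight, a choice made after seeing the data. The adjusted p of Hmgb2 there ranged from 0.00935 without Erg +/+ HSC replicate 3 to 0.178 with the mean of probe sets. With the mean of probe sets Phf20 turned to -0.20 (0.41 before) in the difference of effects, and Hmgb2 to -0.11 (0.57 before) in the mice with reduced Erg; the cause was not tested. Over 50 results of named genes and 827 settings, 814 kept direction and side of the threshold, 8 lost the call, 3 gained one and 2 reversed. Same-numbered samples did not deviate together (correlations of deviations between -0.0852 and 0.104), so they share a number and no known pairing; with the replicate number as a block the control count stayed at 1 (Hmgb2 adjusted p 0.0145) and the others at 0. The 3 arrays per group leave a median 95% interval of 0.484 log2 units either side of a pairwise difference, without adjustment for the number of genes. Smaller differences were mostly not detectable, and larger ones could be missed as well. In the control populations Smarcb1 at -1.02 and Prmt9 at 0.88 were not called.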
